A study of Mus musculus with 2 samples.

Results

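Collagen genes were examined in gonads with their attached mesonephroi, the embryonic kidneys that lie beside them, taken from XX mouse embryos at E12.5 (embryonic age in days). All probe sets annotated with exactly 1 gene symbol of the form Col, number, a, number were taken. This gave 82 probe sets for 42 collagen genes, out of 18193 genes and 45101 probe sets on the array. The Gata4ki/ki embryos were homozygous for a knock-in allele of Gata4, which encodes a zinc finger transcription factor of the gonadal somatic cells. That allele weakens the contact of GATA4 with its FOG cofactors and is carried in every tissue. The embryos set against them were wild type, and the labels name a strain, C57Bl/6, for the mutant embryos only. RNA from 6 pairs of complexes was pooled on 1 array for Gata4ki/ki and likewise on 1 array for wild type. No replicate error or test between the groups was therefore possible, and each difference below describes these 2 arrays.

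Collagens are matrix proteins of 3 polypeptide chains wound into a triple helix, which may be copies of 1 chain or products of several genes. Fibrillar collagens build the fibres of connective tissue, and FACIT collagens, named for fibril association and interrupted triple helices, sit on the surface of those fibres. Type IV collagen forms the sheet of basement membranes, other network collagens form filaments and lattices, and transmembrane collagens are anchored in the cell surface. In the forming ovary, basement membrane surrounds the cords of germ cells and supporting cells, and fibrillar collagen lies in the stroma between them and in the mesonephros.

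The values are MAS5 signals, one brightness per probe set on a linear scale, scaled to the same trimmed mean on both arrays. A signal counted as above the floor when it exceeded 24.04, the median over both arrays, and lower signals were set to that value before log2 was taken. A gene was read from its brightest probe set, and log2 ratios are Gata4ki/ki minus wild type. Of the 42 collagen genes, 29 exceeded the floor in Gata4ki/ki or wild type (69.0%, against 67.6% of all genes), and 27 in both. These 29 are called measured. Ratios were noisier at low signal, with a robust SD over probe sets of 0.38 at mean signals up to 100, 0.22 from there to 400 and 0.13 beyond. The 8 early gonad genes and the 8 duct genes listed for this tissue and found on the array were all above the floor on both arrays. Emx2 is on both lists. On the early gonad list, the granulosa genes Foxl2 and Fst were 4.13-fold and 11.7-fold lower in Gata4ki/ki. They were the only 2 of its 8 genes at least 2-fold lower, against 0.537% of all measured genes. Of the 8, 5 had a log2 ratio below 0 and 3 above 0 (51.4% of all measured genes), with a median of -0.12. Those above 0 were Nr5a1 at 0.34, Wt1 at 0.01 and Gata4 at 0.25, with -0.51 on the other Gata4 probe set.

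The collagen genes as a set had similar signals in Gata4ki/ki and wild type. None of the 29 measured collagen genes was at least 2-fold higher in Gata4ki/ki, where 0.846% of all 12300 measured genes were, and none was at least 2-fold lower, where 0.537% were. With the floor at the 40th percentile, Col11a2 became 2-fold lower, at a log2 ratio of -1.23. A smaller difference, 1.3-fold, was chosen after the values were seen, with Col1a1 just inside it at 1.304-fold and Col6a3 outside at 1.203-fold. At that size Col14a1, Col15a1 and Col1a1 were higher (3 genes or 10.3%, background 8.41%), and Col9a1 and Col11a2 lower (2 genes or 6.9%, background 7.51%). Col1a1 fell short of that size with a pseudocount, quantile normalization or the median over its probe sets, and Col9a1 with the pseudocount or that median. At 5/4-fold, the size first used, the collagen counts were also 3 higher (background 10.8%) and 2 lower (background 9.8%). At 1.2-fold 4 were higher (background 14.2%) and 2 lower (background 12.8%), and at 1.4-fold 2 were higher (background 5.42%) and none lower (background 4.54%). The median log2 ratio was 0.06 over the collagen genes and 0.01 over all measured genes. A ratio above 0 was found for 16 of the 29, or 55.2%, against 51.4% of all measured genes. Most of these shares lie close to those of the whole array. The shares lower at 1.2-fold and 1.4-fold were further below it, but they rest on 2 and none of the 29 genes. Gonad and mesonephros were not separated, so fewer cells of a type and less RNA per cell cannot be told apart.

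**Figure D1:**
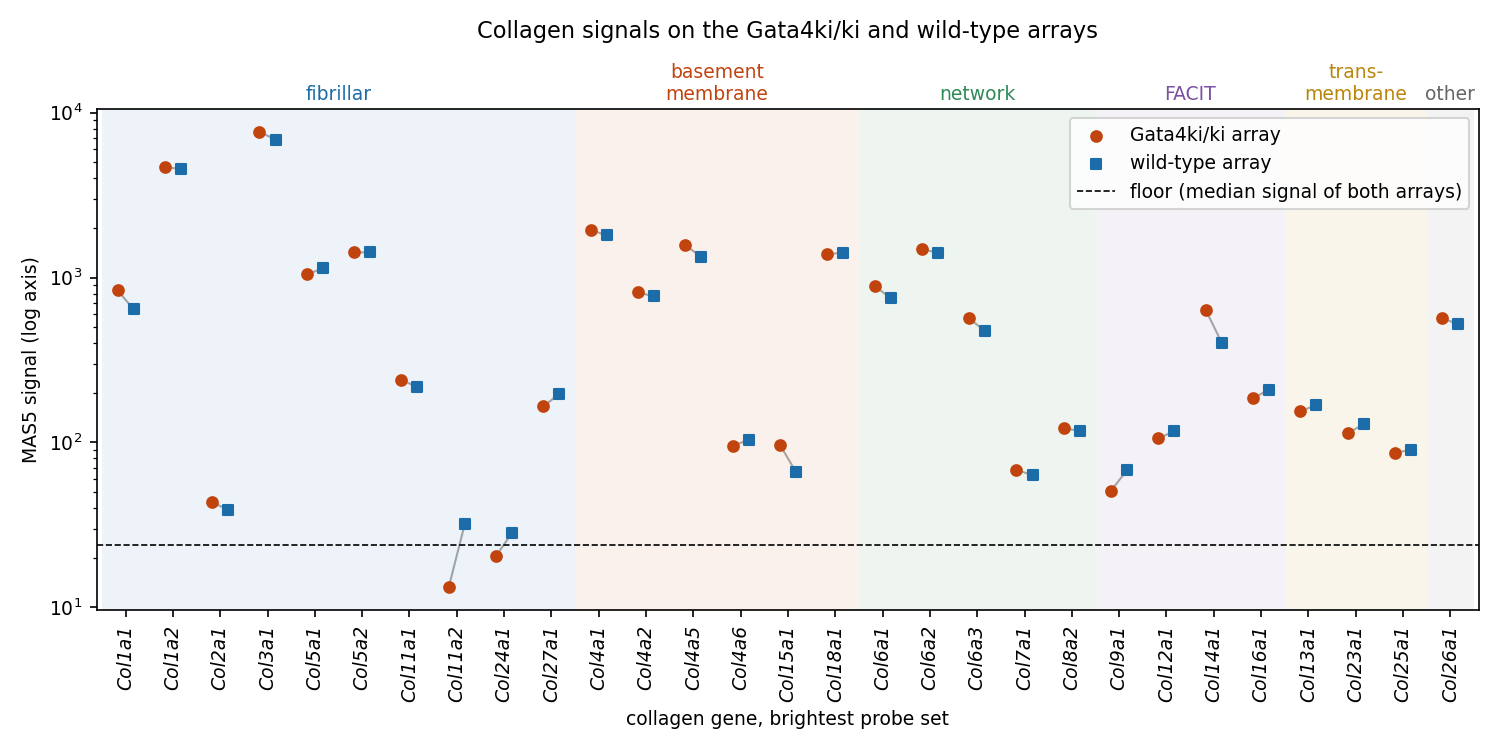
MAS5 signal (log axis) of the brightest probe set of each of the 29 measured collagen genes, with the Gata4ki/ki array as circles and the wild-type array as squares, and the floor of 24.04 dashed. The paired points lie close together for most genes, while Col14a1 and Col15a1 stand higher on the Gata4ki/ki array and Col11a2 and Col24a1 are under the floor there.

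Among the fibrillar collagens, the chains of the abundant interstitial fibres differed little. Col3a1, the single chain of type III collagen in soft connective tissue, had signals of 7648.2 in Gata4ki/ki and 6872.0 in wild type, a log2 ratio of 0.15. Its other probe set gave 2046.2 in Gata4ki/ki and 1647.8 in wild type, a ratio of 0.31. Both probe sets were thus brighter on the Gata4ki/ki array by under 1.3-fold. Of the 89 genes within 0.5 of Col3a1 in mean log2 signal, 4.49% had an absolute ratio as large as that of its brightest probe set.

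Type I collagen, the main fibre of most connective tissue, is built from the products of Col1a1 and Col1a2. Col1a1 had 836.7 in Gata4ki/ki and 641.9 in wild type where it was brightest, giving a log2 ratio of 0.38. Its other probe set gave 546.8 in Gata4ki/ki and 613.4 in wild type, a ratio of -0.17, so the 2 probe sets of Col1a1 pointed opposite ways. Col1a2 had 4697.9 in Gata4ki/ki and 4537.4 in wild type, a log2 ratio of 0.05. A dimmer probe set gave 0.10, and the dimmest, near the floor with 25.39 in Gata4ki/ki and 42.48 in wild type, gave -0.74. The brightest probe sets of the 2 partner chains were 0.33 apart in log2 ratio, less than the 0.55 between the 2 probe sets of Col1a1.

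Type V and type XI collagens start fibres and set their thickness. Col5a1 had 1044.9 in Gata4ki/ki and 1137.4 in wild type, a log2 ratio of -0.12, and its other probe sets gave -0.03 and 0.13. Col5a2 had 1420.8 in Gata4ki/ki and 1422.7 in wild type, a ratio of 0.00 (-0.0019), and 0.23 on its other probe set. These probe sets fell on either side of 0, and the third type V gene, Col5a3, did not exceed the floor in Gata4ki/ki or wild type. Col11a1 had 240.7 in Gata4ki/ki and 215.8 in wild type, a ratio of 0.16, with 0.14 on its other probe set.

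Col2a1 and Col11a2, chains of the cartilage fibre, were near the floor. Col2a1, the main fibrillar collagen of cartilage, had 43.3 in Gata4ki/ki and 39.15 in wild type, a log2 ratio of 0.15. Col11a2, a partner of Col2a1 and Col11a1 in cartilage fibres, had 13.24 in Gata4ki/ki and 32.09 in wild type. Only its wild-type signal was above the floor, so it was at least 1.33-fold lower in Gata4ki/ki. Of 10 cartilage markers on the array, 4 were above the floor (Sox5, Sox6, Sox9 and Hapln1), with a summed signal of 418.9 in Gata4ki/ki and 375.7 in wild type. The defining cartilage genes Acan, Matn1 and Comp did not exceed the floor in Gata4ki/ki or wild type.

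The remaining fibrillar genes encode less studied chains. Col27a1, first known from cartilage, had 165.5 in Gata4ki/ki and 197.6 in wild type, a log2 ratio of -0.26, and -0.15 on its other probe set. Col24a1 had 20.49 in Gata4ki/ki and 28.38 in wild type and was at least 1.18-fold lower. Of the 11 fibrillar genes 10 were measured, 5 with a ratio above 0 (background 51.4%) and 5 below it, and their median was 0.02.

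Basement membrane collagens were measured for 6 of 8 genes, with a median log2 ratio of 0.10. Col4a1 and Col4a2 encode the chains of the basement membrane sheet found in nearly all tissues. Col4a1 had 1942.7 in Gata4ki/ki and 1803.6 in wild type, a ratio of 0.11, and 0.18 on its other probe set. Col4a2 had 814.1 in Gata4ki/ki and 768.1 in wild type, a ratio of 0.08. On their brightest probe sets the 2 genes lay 0.02 apart in log2 ratio, and each ratio was below the spread of probe sets at such signals, 0.13.

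Col4a1 and Col4a2 lie head to head and are read in opposite directions from a common start region. That region is shown because the brightest probe sets of these partner chains had nearly the same ratio. Its part in those ratios was not tested. In the RefSeq promoter windows of GRCm38.p6, which run from 250 bases before each annotated start to 50 after it, their windows share 78 bases and the annotated starts are 21 bases apart on opposite strands, so that the annotated transcripts overlap at their first bases. The stretch that spans both starts lies at chr8:11312801-11312830 and is given on the plus strand, with a GGGCGG box in capitals.
Col4a2 and Col4a1 starts: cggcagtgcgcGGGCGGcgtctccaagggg

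The other type IV pair on the array above the floor, Col4a5 and Col4a6, is also read in opposite directions, on the X chromosome, from annotated starts 1343 bases apart. Col4a5, whose chain is a component of specialised basement membranes such as that of the kidney filter, had 1567.8 in Gata4ki/ki and 1337.6 in wild type. Its log2 ratio was 0.23, and 0.04 on its other probe set. Col4a6 had 95.01 in Gata4ki/ki and 104.1 in wild type, a ratio of -0.13, and -0.01 on its other probe set. This pair was 0.36 apart, with Col4a5 brighter and Col4a6 dimmer on the Gata4ki/ki array. Col4a3 and Col4a4, chains of the mature kidney filter, were not above the floor, their highest signals being 17.09 in Gata4ki/ki and 11.98 in wild type, both for Col4a4.

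Types XV and XVIII collagen lie in or beside basement membranes and carry sugar side chains. Col15a1 had 96.95 in Gata4ki/ki and 66.22 in wild type, and was 1.46-fold higher in Gata4ki/ki, with a log2 ratio of 0.55 on its only probe set. Among 1881 genes of like signal, 207 had an absolute ratio as large. Col18a1, whose tail releases the angiogenesis inhibitor endostatin, had 1388.4 in Gata4ki/ki and 1413.6 in wild type, a ratio of -0.03, with -0.18 on its other probe set. The summed signal of 10 endothelial markers, all above the floor, was 2361.8 in Gata4ki/ki and 2749.8 in wild type. Of the 10, 2 had a log2 ratio above 0 (background 51.4%), Kdr at 0.29 and Tie1 at 0.16, and 8 were below 0. At least 1.3-fold lower were 4 (background 7.51%), Sox17 at -0.66, Sox18 at -0.57, Tek at -0.44 and Cdh5 at -0.38. The part of endothelial cells in the Col15a1 value was not tested.

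**Figure D2:**
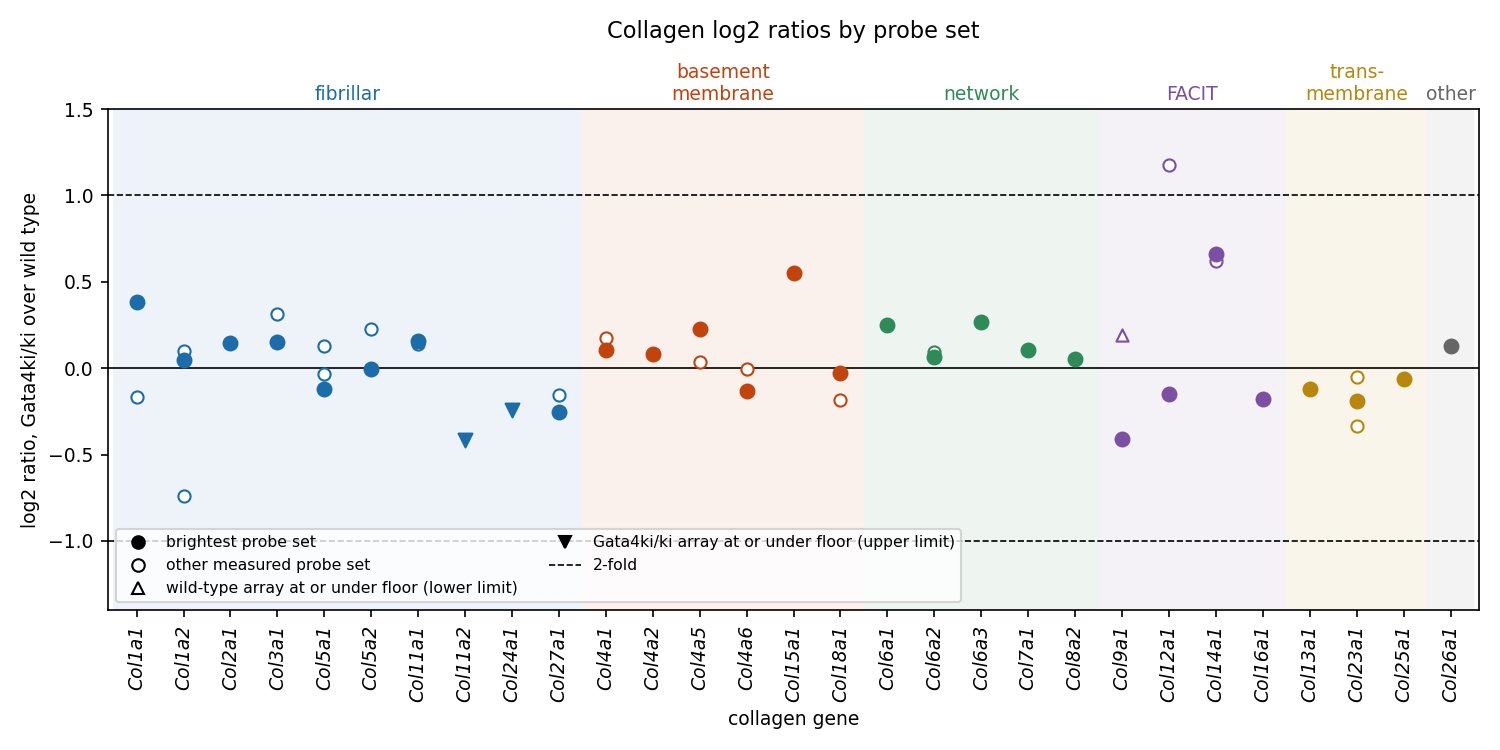
Log2 ratio, Gata4ki/ki over wild type, for each measured collagen probe set, grouped by class. Filled points are the brightest probe set of a gene, open points its other probe sets, triangles limits where 1 array was at or under the floor, and dashed lines 2-fold. Only an open point of Col12a1, at 1.18, lies outside 2-fold, and its filled point is at -0.15.

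The network collagens had ratios above 0 in all 5 measured genes (background 51.4%), each under 1.3-fold, with a median of 0.11. The ratios of Col6a2, Col7a1 and Col8a2 were smaller than the spread of probe sets at such signals. Type VI collagen, a beaded filament around cells, is built from the products of Col6a1, Col6a2 and Col6a3. Col6a1 had 891.5 in Gata4ki/ki and 750.7 in wild type, a log2 ratio of 0.25. Col6a2 had 1485.2 in Gata4ki/ki and 1417.1 in wild type, a ratio of 0.07, and 0.09 on its other probe set. Col6a3 had 566.8 in Gata4ki/ki and 471.3 in wild type, a ratio of 0.27. All 3 chains were brighter on the Gata4ki/ki array and lay within 0.20 of each other. Among genes of like signal, an absolute ratio as large was found for 9.94% at Col6a1, 56.0% at Col6a2 and 12.0% at Col6a3.

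Col7a1, the anchoring fibril that ties epithelia to the stroma, had 68.18 in Gata4ki/ki and 63.37 in wild type, a log2 ratio of 0.11. Col8a2, a short-chain lattice collagen, had 122.1 in Gata4ki/ki and 117.5 in wild type, a ratio of 0.06. Its partner Col8a1, the hypertrophic cartilage gene Col10a1, Col6a4 and Col6a5 were not above the floor. The highest signal among these 4 genes was 20.32 in Gata4ki/ki and 11.73 in wild type, both on 1 probe set of Col8a1.

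The FACIT collagens held the largest collagen ratio and the widest spread between genes. Col14a1, which coats fibrils in embryonic and stretched connective tissue, had 636.7 in Gata4ki/ki and 402.3 in wild type on its brightest probe set. A second probe set gave 106.3 in Gata4ki/ki and 69.11 in wild type. The log2 ratios were 0.66 and 0.62, or 1.58-fold and 1.54-fold higher in Gata4ki/ki, and the gene's last probe set did not exceed the floor in Gata4ki/ki or wild type. The 2 measured probe sets were 0.04 apart, against a median gap of 0.28 between probe sets over the 4936 genes with at least 2 above the floor. Of the 1993 genes of like signal, 1.05% had an absolute ratio as large as Col14a1, which is the largest of 29. Probe sets of 1 gene read the same RNA pool, so their agreement does not measure the spread between embryos.

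Some contractile genes of smooth muscle also had higher signals in Gata4ki/ki. Acta2, smooth muscle actin, had 1475.2 in Gata4ki/ki and 795.0 in wild type, and Tagln had 242.6 in Gata4ki/ki and 140.3 in wild type. The 7 of 9 smooth muscle markers above the floor on at least 1 array summed to 2440.5 in Gata4ki/ki and 1613.4 in wild type. Most of that difference came from Acta2, and the median log2 ratio of the 7 was 0.07. Actg2 was at 1.46 or higher, Mylk at 0.07, Smtn at 0.03 and Des at -0.38. Myh11 had 20.48 in Gata4ki/ki and 24.04 in wild type, barely above the floor, and Cnn1 and Lmod1 were not above it. The 7 stromal markers summed to 11996.4 in Gata4ki/ki and 12567.4 in wild type. Of these, 6 had a ratio below 0 and 1, Pdgfrb at 0.32, was above 0 (background 51.4%). The part of either cell type in the Col14a1 value was not tested.

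Other FACIT genes pointed the other way on their brightest probe sets. Col12a1, a relative of Col14a1 in tendon and fascia, had 105.8 in Gata4ki/ki and 117.5 in wild type, a log2 ratio of -0.15. Its next probe set gave 66.24 in Gata4ki/ki and 29.32 in wild type, a ratio of 1.18, and the other two were not above the floor. The 2 readings of Col12a1 were 1.33 apart, the widest gap among the 15 collagen genes with at least 2 probe sets above the floor on both arrays, whose median gap was 0.16. The data therefore give Col12a1 no single direction.

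Col16a1, a fibril-surface collagen, had 185.4 in Gata4ki/ki and 209.5 in wild type, a log2 ratio of -0.18. Col9a1, the FACIT chain of cartilage fibres, had 51.14 in Gata4ki/ki and 68.07 in wild type, a ratio of -0.41. Its dimmer probe set had 27.42 in Gata4ki/ki and 21.09 in wild type, at least 0.19 in the opposite direction. Of 1646 genes of like signal, 482 had an absolute ratio as large as that of the brightest Col9a1 probe set. The Col9a1 partners Col9a2 and Col9a3, and Col19a1, Col20a1 and Col22a1, stayed under the floor in Gata4ki/ki and wild type, with no signal above 18.89. The 4 measured FACIT genes had a median of -0.16, or 0.20 when a gene was read from the median of its probe sets and not from the brightest.

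Transmembrane collagens had small ratios below 0 in all 3 measured genes, with a median of -0.12. Of all measured genes, 51.4% had a ratio above 0. Col13a1, found at cell and matrix contacts, had 155.0 in Gata4ki/ki and 168.4 in wild type, a log2 ratio of -0.12. Col23a1 had 113.6 in Gata4ki/ki and 129.5 in wild type, a ratio of -0.19, with -0.05 and -0.34 on its other probe sets. Col25a1, a neuronal collagen, had 86.51 in Gata4ki/ki and 90.4 in wild type, a ratio of -0.06. The brightest probe set's ratio in each was smaller than the spread of probe sets at such signals, and Col17a1, of the skin attachment plaque, was not above the floor. Col26a1, a gene outside these classes that is known from the developing testis and ovary, had 568.1 in Gata4ki/ki and 519.8 in wild type, a ratio of 0.13.

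**Figure D3:**
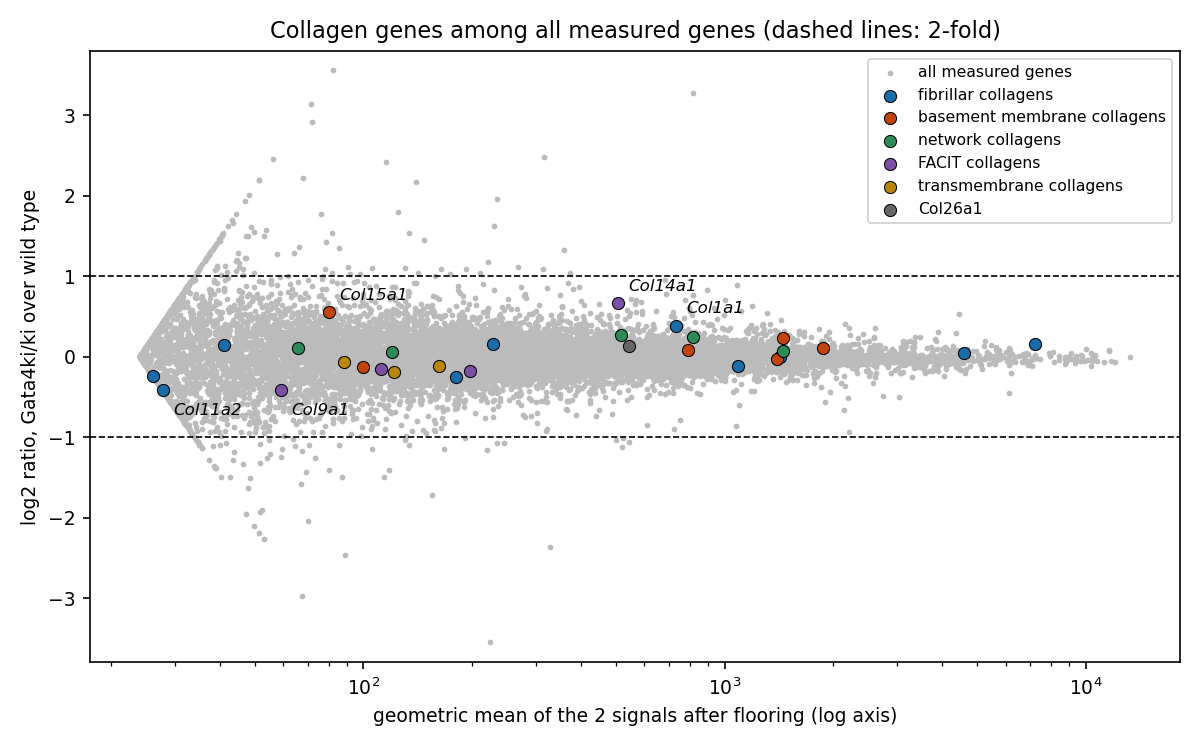
Log2 ratio, Gata4ki/ki over wild type, against the geometric mean signal of both arrays (log axis) for all 12300 measured genes in grey and the 29 collagen genes in colour by class; dashed lines mark 2-fold. The collagen genes lie inside the grey cloud, with Col14a1 at 0.66 and Col1a1 at 0.38 in its upper part. Of 1636 genes of like signal, 63 had an absolute ratio as large as that of Col1a1, whose other probe set was at -0.17.

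Brighter genes, whose ratios spread less, were also counted alone. Of the 29 measured collagen genes 21 had a mean signal above 100. In that range none of the 21 was at least 2-fold higher (background 0.26% of 8477 genes) and none 2-fold lower (background 0.201%). Col14a1 and Col1a1 were at least 1.3-fold higher (2 genes or 9.52%, background 4.23%), and none was 1.3-fold lower (background 3.73%). The count higher was also 2 at 5/4-fold (background 6.22%), was 3 at 1.2-fold (background 8.98%) and was 1, Col14a1, at 1.4-fold (background 2.39%). None was lower at those sizes (backgrounds 5.4%, 8.06% and 1.9%), so the distance to the background moved with the size chosen. A ratio above 0 was found for 13 of the 21, or 61.9%, against 51.2%. Chains that assemble together were compared where at least 2 were above the floor on both arrays, which held for 6 of 9 sets. Among the chains so compared, the gap between the highest and lowest ratio ran from 0.01 for Col2a1 and Col11a1 to 0.36 for Col4a5 and Col4a6. The gap of 0.01 leaves out the third chain of that set, Col11a2, which was under the floor in Gata4ki/ki with a log2 ratio of -0.42 or lower. It therefore does not describe the whole set, and Col2a1 was itself near the floor.

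The enzymes and chaperones that make collagen were also close between the arrays. Of 20 genes for collagen hydroxylation and folding on the array, all were measured, none was 1.3-fold higher or lower, and the median log2 ratio was 0.01. Serpinh1, the collagen chaperone HSP47, had 1895.1 in Gata4ki/ki and 2086.4 in wild type, a ratio of -0.14, and P4ha1, a prolyl hydroxylase subunit, had 292.1 in Gata4ki/ki and 322.6 in wild type, likewise -0.14. P4ha3, another such subunit, had 33.86 in Gata4ki/ki and 26.41 in wild type, the largest ratio of this list at 0.36 but near the floor. P3h1 and Colgalt1, which hydroxylate and glycosylate collagen, had 0.24 and 0.18 on their brightest probe sets, and -0.34 and -0.10 on another.

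Enzymes that trim and cross-link collagen outside the cell spread more widely. Of 11 on the array 7 were measured, of which 2 were at least 1.3-fold higher (background 8.41%) and 1 that much lower (background 7.51%), and the median log2 ratio was 0.06. Bmp1, a protease that removes the C-terminal propeptide of fibrillar procollagen, had 293.5 in Gata4ki/ki and 419.4 in wild type, a ratio of -0.51, and -0.83 on its other probe set. Adamts3, which removes the N-terminal propeptide, had 72.66 in Gata4ki/ki and 50.35 in wild type, a ratio of 0.53. On these readings the 2 proteases differed in opposite directions. Adamts3, however, was read from 1 probe set with signals below 100, where the spread of probe sets was 0.38. Among the cross-linking oxidases, Loxl1 had 690.8 in Gata4ki/ki and 529.5 in wild type, a ratio of 0.38, with 0.49 on its other probe set. Lox had 187.3 in Gata4ki/ki and 162.9 in wild type, a ratio of 0.20, and 0.21 on its other probe set.

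Fibril-binding matrix proteins included the partners with the largest ratios. Of 13 on the array 9 were measured, 2 were at least 1.3-fold higher (background 8.41%), none was that much lower (background 7.51%), and the median log2 ratio was 0.12. Ogn, or osteoglycin, a small leucine-rich proteoglycan, had 292.7 in Gata4ki/ki and 157.1 in wild type, a ratio of 0.90, and 0.36 on its other probe set. Epyc, or epiphycan, had 175.9 in Gata4ki/ki and 100.02 in wild type, a ratio of 0.81. Postn, or periostin, had 1143.2 in Gata4ki/ki and 1342.4 in wild type, a ratio of -0.23. None of these genes reached 2-fold.

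Of the 10 collagen receptors on the array 7 were measured, 2 with a ratio above 0 (background 51.4%) and 5 below 0. Ddr1 and Itgb1 were at least 1.3-fold lower on their brightest probe sets (background 7.51%), and Mrc2 was that much higher (background 8.41%). Their median log2 ratio was -0.27, or 0.02 without probe sets whose name carries a suffix for sequence shared between transcripts. Ddr1, an epithelial collagen receptor kinase, had 1676.9 in Gata4ki/ki and 2279.0 in wild type, a ratio of -0.44, but its 7 measured probe sets ranged from -1.23 to 0.77. Itgb1, the beta subunit of collagen-binding integrins, had 399.6 in Gata4ki/ki and 522.7 in wild type, a ratio of -0.39, with probe sets from -1.10 to 0.16. The endocytic collagen receptor Mrc2 had 90.46 in Gata4ki/ki and 63.82 in wild type, a ratio of 0.50. No direction could be given for Ddr1 or Itgb1 from probe sets that disagreed in sign.

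**Figure D4:**
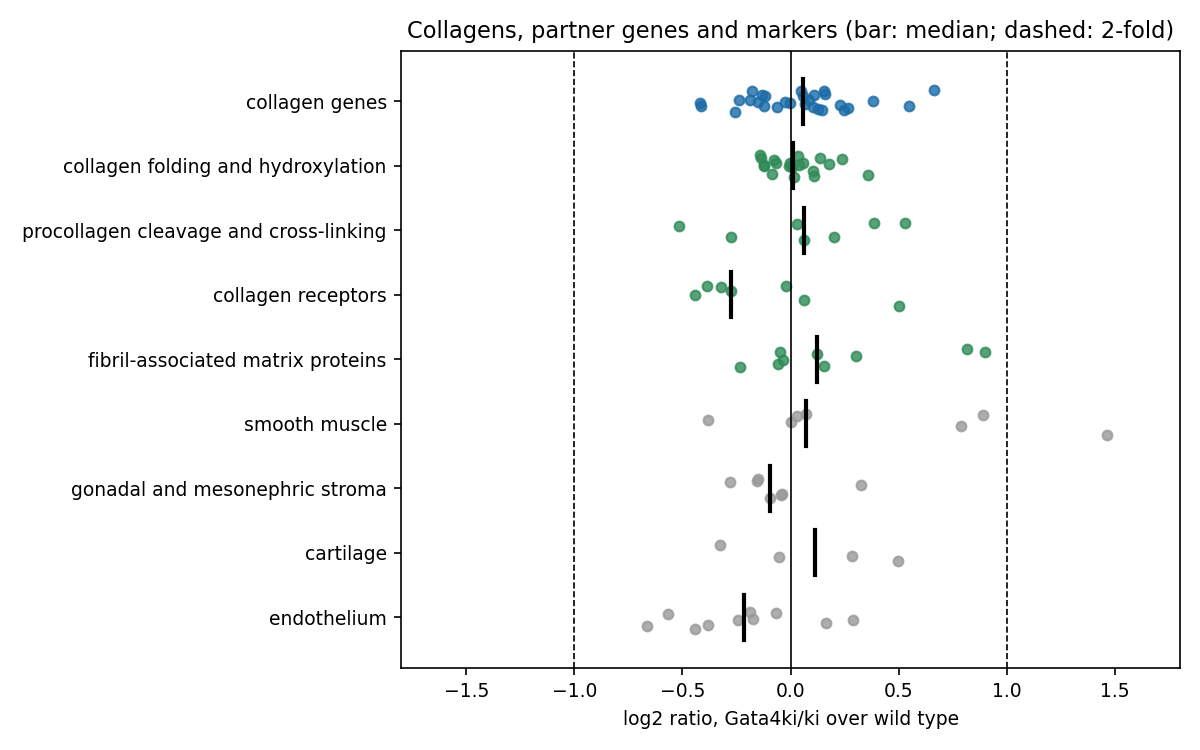
Log2 ratio, Gata4ki/ki over wild type, for each measured gene of the collagens (blue), of 4 lists of collagen partners (green) and of 4 marker lists (grey), limits plotted at their value. Bars are medians and dashed lines 2-fold. The collagens centre at 0.06, the receptors at -0.27, and only the smooth muscle gene Actg2, a limit of 1.46, lies outside 2-fold.

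Markers of other cell kinds differed between the 2 pools. Of 6 trophoblast markers on the array, some listed because they were already known to differ, 4 exceeded the floor, all in Gata4ki/ki only. Of all 12300 measured genes, 11462 exceeded it on both arrays, and the rest were not split by array. Because of how these markers were listed, their count in Gata4ki/ki only is not a result about trophoblast genes. The 4 trophoblast markers had a summed signal of 547.1 in Gata4ki/ki and 5.946 in wild type, while Psg21 and Tpbpa exceeded the floor in neither. The 8 macrophage markers summed to 1916.0 in Gata4ki/ki and 1200.3 in wild type. The largest part of that sum was Csf1r, with 1065.8 in Gata4ki/ki and 626.0 in wild type. Of the 8, 6 were at least 1.3-fold higher (background 8.41%) and 1, Cx3cr1 at -0.39, was that much lower (background 7.51%). The 7 measured of 8 erythroid markers summed to 17837.7 in Gata4ki/ki and 16467.9 in wild type. That erythroid sum is mostly globin. Klf1 (1.66), Slc4a1 (1.42), Alas2 (1.03) and Hemgn (2.19 or higher) had log2 ratios past 2-fold (background 0.846%), and the median of the 7 erythroid markers was 1.03. The 8 duct markers had 1 ratio above 0 (background 51.4%) and 7 below, with a median of -0.21. The 7 include Emx2 (-0.23), which is also on the early gonad list. Calb1 (-0.72) and Wnt7a (-0.63) were the lowest, though the other probe set of Wnt7a gave 0.34. Of the 7 measured coelomic epithelium markers 6 were above 0 (background 51.4%), with a median of 0.29. The part of these cells in the collagen ratios was not tested.

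Since the allele concerns a GATA factor, the promoter windows were searched for the word AGATAA, the word TGATAA, the word AGATAG and the word TGATAG on both strands. RefSeq windows of 300 bases were found for 33 of the 42 collagen genes and 23 of the 29 measured ones. At least 1 word stood in 5 of 36 collagen windows, or 13.9%, against 29.8% of all 32851 windows, and in 4 of the 26 windows of measured genes. Those 4 belong to Col3a1, Col27a1, Col11a2 and Col4a6, which had log2 ratios of 0.15, -0.26, -0.42 or lower, and -0.13. The stretches before their starts are given 5′ to 3′ on the strand of the gene, from GRCm38.p6, with the words in either orientation in capitals. They lie at chr1:45311332-45311391 on the plus strand, chr4:63215162-63215221 on the plus strand, chr17:34038888-34039007 on the plus strand and chrX:141474264-141474323 on the minus strand.
Col3a1: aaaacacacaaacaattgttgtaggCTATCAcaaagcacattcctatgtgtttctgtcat
Col27a1: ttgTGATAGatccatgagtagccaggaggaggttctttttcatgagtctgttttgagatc
Col11a2: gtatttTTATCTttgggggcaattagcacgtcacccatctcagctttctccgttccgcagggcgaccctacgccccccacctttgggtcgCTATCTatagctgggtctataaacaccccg
Col4a6: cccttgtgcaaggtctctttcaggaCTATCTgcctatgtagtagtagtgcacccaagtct

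The Col4a6 window held a further word from 22 to 27 bases after the start. Each word is a match of letters and not a known site of binding. The GGGCGG box seen between the Col4a1 and Col4a2 starts stood in 22 of the 36 collagen windows, or 61.1%, against 35.7% of all windows, and the CCAAT word in 13, or 36.1%, against 37.4%. The word TATAAA stood in 5, or 13.9%, against 13.6%. These windows are not independent, since the 36 come from 33 genes. The box between the Col4a1 and Col4a2 starts also lies in the bases that their windows share, and so stands in both. Col14a1, with the largest collagen ratio, is not among the genes with a window.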

How the data were processed

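The authors deposited 1 value table with a signal intensity per probe set for each of 2 arrays, and the submitters' processing notes name MAS5 without a version; detection calls and filters: not given in the sources used here. Per the labels' protocols, RNA of 6 pairs of complexes was pooled per array and labelled with biotin as cRNA. The intensities were used as deposited. The floor, log2 ratios and brightest probe set were computed as described with the results, using Python 3.11.15, numpy 2.4.6 and pandas 2.3.3. Genes came from the platform annotation, and all 42 collagen symbols matched the RefSeq gene table by gene number. The 64 control probe sets were left out. Collagen classes follow textbook groups, with types XV and XVIII under basement membrane and types VI and VII under network. The members, gene lists and named-gene rule were chosen with earlier results of these data known: all measured collagens are named, and of each partner list Serpinh1, P4ha1, Lox and the 3 largest absolute ratios above the floor on both arrays. Other genes were named after their values were seen. No coordinates of array probes were used. Precision is limited by 1 array per group.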

Additional observations from a re-analysis of the deposited data

How the results depend on the processing

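There were 7 alternative settings: floors at the 40th and 60th percentiles, a pseudocount of 16 in place of the floor, the median over probe sets, no suffixed probe sets, quantile normalization and median scaling. A ratio or median was counted as moved when it changed by more than 0.28, the median gap between probe sets of 1 gene, a limit chosen after the values were seen, and a count when it changed by more than 1.5 times. The count of collagen genes at least 2-fold higher stayed at 0 in all 7. The count at least 2-fold lower became 1 with the floor at the 40th percentile, where Col11a2 reached a log2 ratio of -1.23; with the pseudocount Col11a2 had -0.72. The count at least 1.3-fold lower, 2 as reported, became 1 with the floor at the 60th percentile, the pseudocount or the median over probe sets. The count higher, 3 as reported, became 2 with the pseudocount (Col1a1 at 0.3743) and with quantile normalization (Col1a1 at 0.3766), where Col1a1 was just under that size. The 40th percentile floor gave 4 higher, adding Col8a1, and 3 lower, adding Col24a1. Among genes with a mean signal above 100, the count 1.3-fold higher, 2 as reported, became 1 with the pseudocount, without suffixed probe sets or with quantile normalization. At a fold of 1.4, tried with 1.2 and 5/4 after the values were seen, it was 1, and the count lower over all collagen genes was 0. The cause of the other changes was not tested. With the median over probe sets, the FACIT median was 0.20, Col12a1 was at 0.51, where it is negative as reported, Col9a1 at -0.11 and Col1a1 at 0.11, so that Col12a1 was 1.3-fold higher in place of Col1a1. Without suffixed probe sets the receptor median was 0.0206. The collagen median ranged from 0.05 to 0.08, the fibrillar median from 0.00 (-0.0019) to 0.08, and Col14a1 from 0.62 to 0.67. In all, 192 of 196 values for single collagen genes and 113 of 124 counts and medians did not move by those limits. The 124 include the counts at folds of 1.2, 5/4 and 1.4. The limit of 0.28 was larger than most collagen ratios and every collagen class median, so a ratio could vanish or change sign without being counted as moved. Col1a1 at 0.11 was counted as unmoved, as was Col5a2, which changed sign in 2 settings. The measured network genes kept ratios above 0, and the measured transmembrane genes ratios below 0, in each setting. All settings read the same 2 arrays. Of these network and transmembrane genes, only Col6a1 and Col6a3 had reported ratios beyond the spread of probe sets at their signals. No paired analysis was possible because each group has 1 array.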
